A study of Rattus norvegicus with 4 samples.

Results

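This account follows 10 genes of rat liver: the MAP kinase phosphatases Dusp1 and Dusp6, the immediate early genes Jun, Junb, Fos, Egr1, Ier2, Ier3 and Myc, and the G-protein regulator Rgs3. They were taken as the rows of the deposited count table that carry these symbols. A row was found for 9 of the 10 among 32545 rows, and no row carried the symbol Ier2. The members were chosen by a listing made with the differences between these same libraries known, several of them for a low level under sleep restriction, so their values are given as a description, and the outcome of the test across all genes is stated for them only as counts, which support nothing about the set. Rgs3 is neither an immediate early gene in the usual sense nor a phosphatase, so the name of the set covers it only by association. Liver messenger RNA was sequenced in 2 libraries from rats under sleep restriction, which also underwent forced activity, and in 2 libraries from rats under forced activity alone. Forced activity is thus shared by both groups, and sleep restriction is the only difference between them that the labels name. The labels used here give no strain, sex, age, duration or time of sampling, and do not say whether each library came from a separate animal, so the spread between libraries may be partly technical.

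Immediate early genes are transcribed within minutes of a stimulus without new protein synthesis, because the factors that switch them on are already present and are activated by MAP kinases and other kinases. Jun, Junb and Fos encode subunits of the dimeric factor AP-1, and Egr1 encodes a zinc finger factor. Dusp1 and Dusp6 encode phosphatases that remove phosphate from MAP kinases, and both are themselves induced by that signalling, which closes a feedback loop. In liver these genes respond to growth factors, hormones, feeding and injury, and they are a classic early response after partial hepatectomy.

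The promoters of such genes are known for response elements, so the 250 bases upstream of the gene start are shown for 3 measured members. They come from RefSeq on the build GRCr8, which differs from the rn6 build of the count table. An entry was used for 6 of the 10 members, Dusp1, Dusp6, Junb, Egr1, Ier2 and Rgs3, and all 6 lie on the plus strand. Capitals mark matches to the motifs named below. The Dusp1 window is chr10:17184603-17184852, the Egr1 window chr18:26736828-26737077 and the Junb window chr19:40080876-40081125.
Dusp1: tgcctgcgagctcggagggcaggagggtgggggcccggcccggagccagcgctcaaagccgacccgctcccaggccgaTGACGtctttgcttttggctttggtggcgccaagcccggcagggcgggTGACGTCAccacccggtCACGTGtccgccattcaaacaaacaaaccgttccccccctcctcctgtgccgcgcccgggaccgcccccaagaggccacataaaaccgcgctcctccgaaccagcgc
Egr1: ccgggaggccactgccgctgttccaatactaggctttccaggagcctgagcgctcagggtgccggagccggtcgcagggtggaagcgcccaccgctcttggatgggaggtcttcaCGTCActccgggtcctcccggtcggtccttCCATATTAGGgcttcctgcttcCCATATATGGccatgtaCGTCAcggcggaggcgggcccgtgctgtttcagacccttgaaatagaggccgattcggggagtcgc
Junb: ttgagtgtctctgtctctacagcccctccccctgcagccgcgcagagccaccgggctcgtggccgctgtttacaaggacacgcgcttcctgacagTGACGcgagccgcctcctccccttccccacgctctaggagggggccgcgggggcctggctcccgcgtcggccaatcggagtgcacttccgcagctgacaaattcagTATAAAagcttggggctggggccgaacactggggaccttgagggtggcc

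Both strands were searched for 7 motifs, and each share is over the same 250-base window of 33469 rat genes. The full cAMP response element, TGACGTCA, was present in Dusp1 and Ier2 and in 1.59% of all windows. Its core, TGACG, which the full element contains, was present in 5 of the 6 members and in 18.2% of all windows. The CArG box, the element read by serum response factor, was present in Egr1, where 2 copies lie between positions -105 and -74 from the gene start, and in 1.5% of all windows. The E-box CACGTG was present in Dusp1 and in 5.59% of all windows, and the letters TATAAA in Junb and Rgs3 and in 12.9%. The AP-1 site TGANTCA (6.34% of windows) and the EGR1 site GCGNGGGCG (4.29%) were not found in these 6 windows, and the Dusp6 window held none of the 7 motifs. A match describes letters in this window and is not evidence of binding.

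**Figure D1:**
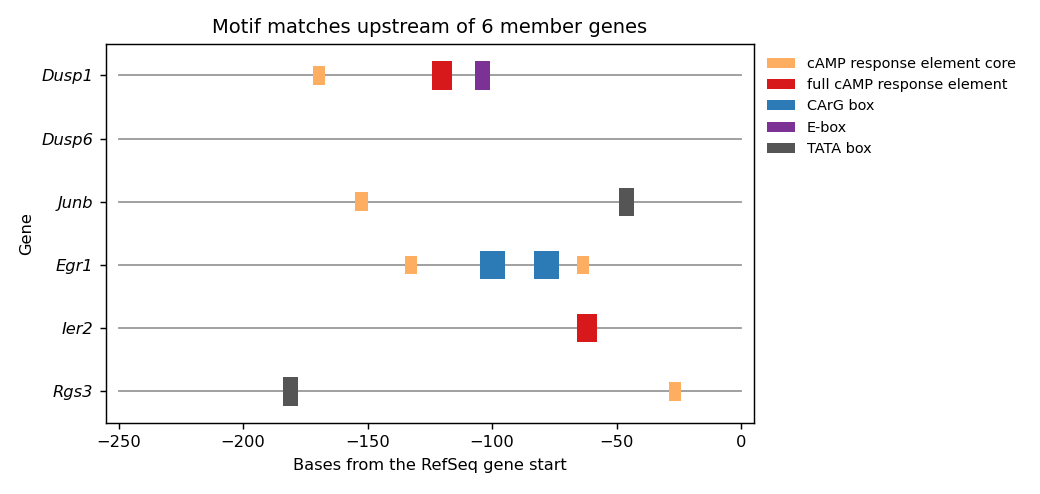
Positions of motif matches in the 250 bases upstream of 6 member genes, in bases from the RefSeq gene start on the x axis, with genes on the y axis. Boxes are matches, coloured by motif, and a core inside a full cAMP response element is covered by it. Egr1 carries 2 CArG boxes, Dusp1 and Ier2 each carry 1 full cAMP response element, and Dusp6 has no box.

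The tabulated counts summed to 515682.4 and 520275.6 in sleep restriction 1 and 2, and to 508202.6 and 520204.5 in forced activity 1 and 2. The values are multiples of 0.1 and only sleep restriction 2 holds whole numbers almost throughout, so the totals of the other 3 may not be their original depths. Genes above 0 numbered 14105 and 10952 in sleep restriction 1 and 2, against 14008 and 11943 in forced activity 1 and 2. A fraction of a count places a gene above 0, and sleep restriction 2 holds almost no fractions, so its number is not directly comparable. Because both replicate 1 libraries listed more genes, differences between libraries of equal replicate number are also given. They are a description, and the labels do not pair these libraries. Levels are given as counts, and as counts per 1e6 scaled counts of the tested genes (CPM, scaled with edgeR's TMM factors). Counts grow with transcript length, so levels are compared between libraries and not between genes. A log2 difference is the mean log2 CPM under sleep restriction minus that under forced activity, with a prior count of 2 added, and its standard error (SE) comes from the spread of the 2 libraries in each group. Such an SE can fall below counting error where counts are low, so a small SE alone does not show a reliable difference.

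The summed level of the 9 measured members was lower in both sleep restriction libraries, at 166 and 128 CPM, against 496 and 344 CPM in forced activity 1 and 2. All 9 had a negative log2 difference, as did 47.6% of the 10425 rows with a mean count of at least 1, and their median was -1.27 against 0.02 over those rows. In 8 of the 9 the difference was negative within both replicate numbers, as it was in 23.9% of those rows. In 7 of the 9, all but Junb and Myc and counting the barely detected Fos, both sleep restriction libraries lay below both forced activity libraries, a pattern seen in 13.6% of those rows. Differences below -1 were found in 6 members, Rgs3, Dusp6, Egr1, Dusp1, Junb and Jun, and in 0.48% of those rows. Because the members were chosen with this contrast known, nothing is read from these shares.

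**Figure D2:**
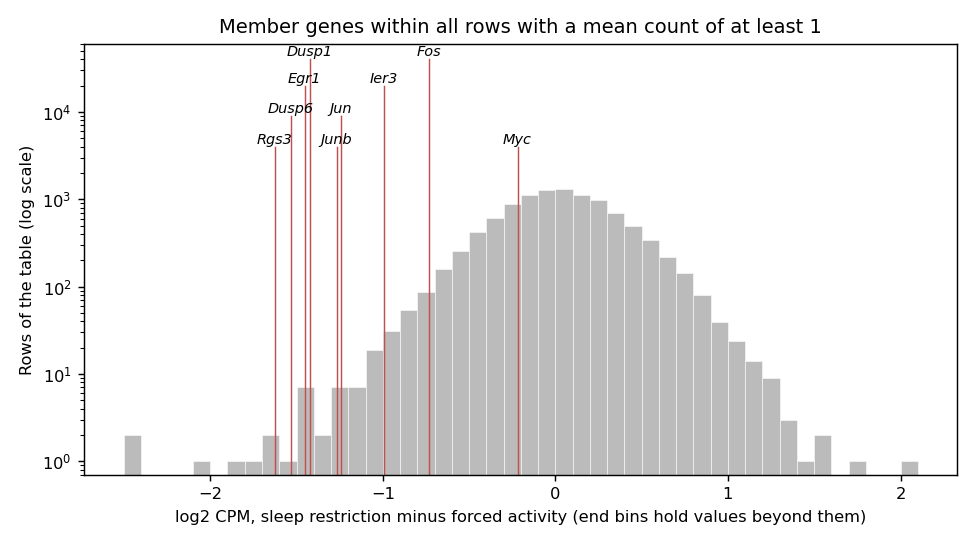
Distribution of log2 differences, sleep restriction minus forced activity, over 10425 rows with a mean count of at least 1 (grey bars, number of rows on a log axis, end bins holding values beyond them), with red lines at the 9 measured members. The members run from -1.63 for Rgs3 to -0.22 for Myc, while the middle 90% of rows runs from -0.54 to 0.61.

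Among all 4986 genes tested with edgeR's quasi-likelihood test, 1 gene, which is no member, passed an adjusted p of 0.05, or 0.0201% of those tested. Only 5 members, Dusp1, Dusp6, Jun, Ier3 and Rgs3, were abundant enough to be tested, and 0 of them passed. In simulated counts this test recovered only 15.8% of 2-fold changes and 83.1% of 4-fold changes. The simulated dispersion was set to 0.05 and not estimated from these libraries, so the rates are not the test's power for the members. A lack of calls therefore does not show a lack of change, here or in the lists below. At an unadjusted p under 0.05 in the lower direction there were 5 members and 1.34% of tested genes. DESeq2 also called 0 members, against 0.0401% of genes called lower, and had 3 members and 0.261% of genes lower at an unadjusted p under 0.05. These counts come from the libraries known when the members were chosen and restate that choice. The other 4, Egr1, Junb, Myc and Fos, were below the filter on low counts. Junb, Myc and Fos had mean counts below 10, at 8.73, 8.28 and 1.05, and Egr1 lay just above that, at 10.2.

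Dusp1 encodes the inducible nuclear phosphatase also called MKP-1, which acts on p38, JNK and ERK. Its row, ENSRNOG00000003977.5, spans chr10:16970626-16973418 in rn6. It had 14.5 and 19 counts in sleep restriction 1 and 2, against 56.5 and 40.7 counts in forced activity 1 and 2. Both sleep restriction libraries were low and the groups did not overlap. The means were 34.1 ± 6.47 CPM under sleep restriction and 99.5 ± 28.6 CPM under forced activity (SD, 2 libraries each), a log2 difference of -1.42 (SE 0.33). It was -1.88 between the replicate 1 libraries and -0.96 between the replicate 2 libraries. The wider gap came with both the high value of forced activity 1 and the low value of sleep restriction 1.

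Dusp6 encodes the cytoplasmic phosphatase MKP-3, which is selective for ERK and is a standard transcriptional readout of ERK activity. Its row, ENSRNOG00000023896.4, spans chr7:41475163-41479392. It had 15.6 and 8 counts in sleep restriction 1 and 2, against 30.7 and 43.3 counts in forced activity 1 and 2. The groups again did not overlap, but the order of the replicates was the opposite of that of Dusp1, with forced activity 2 the highest library. The means were 24.0 ± 10.9 CPM under sleep restriction and 74.7 ± 13.6 CPM under forced activity, a log2 difference of -1.53 (SE 0.44). The difference was -0.95 in replicate 1 and -2.12 in replicate 2.

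Of the AP-1 subunits, only Jun had enough counts to be tested. The Jun row, ENSRNOG00000026293.2, spans chr5:114011189-114014277 and had 13.8 and 6 counts in sleep restriction 1 and 2, against 28.1 and 21.6 counts in forced activity 1 and 2. Sleep restriction 2 was the lowest library and the groups did not overlap. The means were 20.1 ± 11.2 CPM under sleep restriction and 50.8 ± 12.4 CPM under forced activity, a log2 difference of -1.24 (SE 0.54). Without sleep restriction 2 the difference was -0.75.

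Junb, a second Jun family subunit, lies at chr19:26092974-26094756 (ENSRNOG00000042838.3). It had 5.6 and 2 counts in sleep restriction 1 and 2, against 22 and 5.3 counts in forced activity 1 and 2. Only forced activity 1 stood high, and sleep restriction 1 and forced activity 2 differed by less than 1 count, so the groups overlapped in CPM. The means were 7.73 ± 5.18 CPM under sleep restriction and 28.5 ± 25.7 CPM under forced activity, and the log2 difference was -1.27 (SE 1.02), and without forced activity 1 it was -0.36. The count of 2 in sleep restriction 2 has an exact 95% Poisson interval of 0.242 to 7.22, which covers counting error only and contains the 5.3 counts of forced activity 2.

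Fos, the partner of Jun in the best known AP-1 dimer, was barely detected in these livers. Its row at chr6:109300433-109303299 (ENSRNOG00000008015.5) had 0.4 and 0 counts in sleep restriction 1 and 2, against 0.6 and 3.2 counts in forced activity 1 and 2. A count of 0 in sleep restriction 2 allows up to 3 counts, or 6.10 CPM, close to the 6.23 CPM of forced activity 2, the only library with more than 1 count. A difference in Fos was therefore not detectable at this depth. Its log2 difference of -0.74 (SE 0.49) depends on the prior count, and the median of the 8 measured members without Fos was -1.35.

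Egr1, which encodes a zinc finger factor that binds GC-rich promoters, lies at chr18:27657628-27661429 (ENSRNOG00000019422.4). It had 4.4 and 4 counts in sleep restriction 1 and 2, against 22.8 and 9.6 counts in forced activity 1 and 2. The sleep restriction libraries were nearly equal and lay below both forced activity libraries, which differed widely from each other. The means were 8.55 ± 0.577 CPM under sleep restriction and 33.5 ± 20.9 CPM under forced activity, a log2 difference of -1.45 (SE 0.60). Without forced activity 1 the difference was -0.85. In the Egr1 window shown above, the CArG boxes are the elements through which serum response factor is known to act.

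Myc, the growth-promoting transcription factor, was the member with no steady direction. Its row at chr7:102586313-102591237 (ENSRNOG00000004500.4) had 5.5 and 8 counts in sleep restriction 1 and 2, against 16 and 3.6 counts in forced activity 1 and 2. Both sleep restriction libraries lay between the highest and the lowest value, which were both of forced activity. The means were 13.7 ± 3.60 CPM under sleep restriction and 20.5 ± 19.0 CPM under forced activity, and the log2 difference was -0.22 (SE 0.91), made of -1.32 in replicate 1 and 0.88 in replicate 2. Without forced activity 1 it was 0.67, the opposite sign.

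Ier3, an early response gene that modulates ERK signalling and cell survival, was the member with the closest replicates. Its row, ENSRNOG00000000827.6, spans chr20:3438798-3440769 and had 10 and 9 counts in sleep restriction 1 and 2, against 21.2 and 20.6 counts in forced activity 1 and 2. The libraries of each group were nearly equal and the groups did not overlap in CPM. The means were 19.3 ± 1.44 CPM under sleep restriction and 42.5 ± 3.40 CPM under forced activity. The log2 difference was -0.99 (SE 0.10), with -1.0 in replicate 1 and -0.98 in replicate 2. The 9 counts of sleep restriction 2 have an exact 95% Poisson interval of 4.12 to 17.1, wider than the gap between the libraries of either group. The 20.6 counts of forced activity 2 have an interval of 12.7 to 31.6, which overlaps that of sleep restriction 2. The small SE of Ier3 is therefore not a sign of precision beyond counting error.

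Rgs3 encodes a GTPase-activating protein that shortens signalling by the Gi and Gq classes of G proteins. It had the most negative log2 difference of the members. Its row, ENSRNOG00000024501.6, spans chr5:78428669-78567288 and had 11.7 and 7 counts in sleep restriction 1 and 2, against 36.1 and 28.9 counts in forced activity 1 and 2. The groups did not overlap. The means were 19.0 ± 6.77 CPM under sleep restriction and 66.4 ± 14.3 CPM under forced activity, a log2 difference of -1.63 (SE 0.37). The difference was -1.53 in replicate 1 and -1.72 in replicate 2. The interval of Rgs3 also contains the small nuclear RNA row U4, which was at 0 in every library, and no other member's interval overlapped another row.

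**Figure D3:**
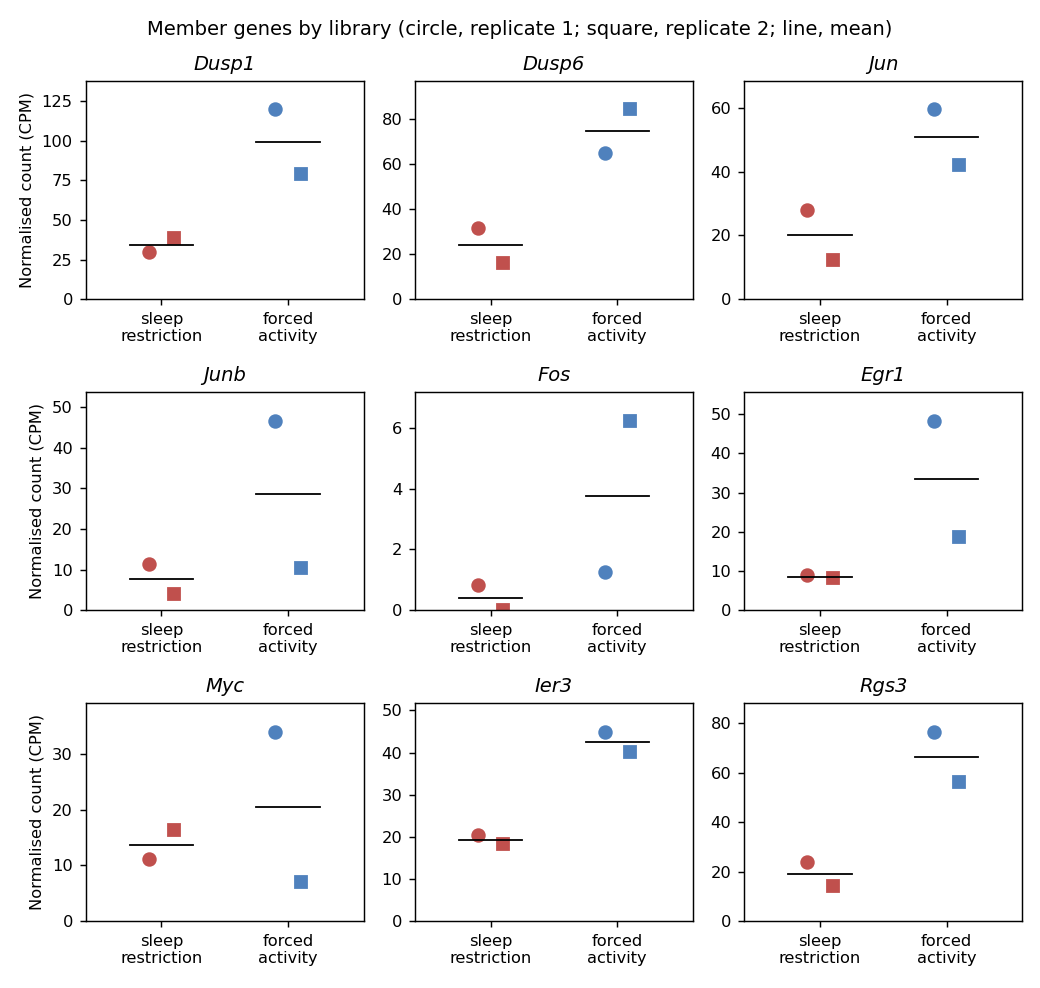
Level of each measured member in counts per 1e6 (CPM, y axis, starting at 0 and scaled separately for each gene) in sleep restriction (left, red) and forced activity (right, blue). Circles are replicate 1, squares replicate 2 and lines the mean of 2 libraries. Groups are apart for Dusp1, Dusp6, Jun, Egr1, Ier3, Rgs3 and, at under 7 CPM, Fos, and overlap for Junb and Myc.

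Most members shared the highest and the lowest library, but the sizes of the differences between libraries varied. Forced activity 1 was the highest library for 7 of the 9 and forced activity 2 for Dusp6 and Fos. Sleep restriction 2, the library with whole numbers almost throughout, was the lowest for 7 of the 9. The exceptions were Dusp1, lowest in sleep restriction 1, and Myc, lowest in forced activity 2. These counts are not set beside shares over all rows, and nothing is read from them. Within forced activity, replicate 1 exceeded replicate 2 by 1.82 for Junb, 1.78 for Myc and 1.20 for Egr1 on the log2 scale, but only by 0.15 for Ier3 and 0.42 for Rgs3. The median of the 9 log2 differences was -1.32 in replicate 1 and -0.98 in replicate 2.

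**Figure D4:**
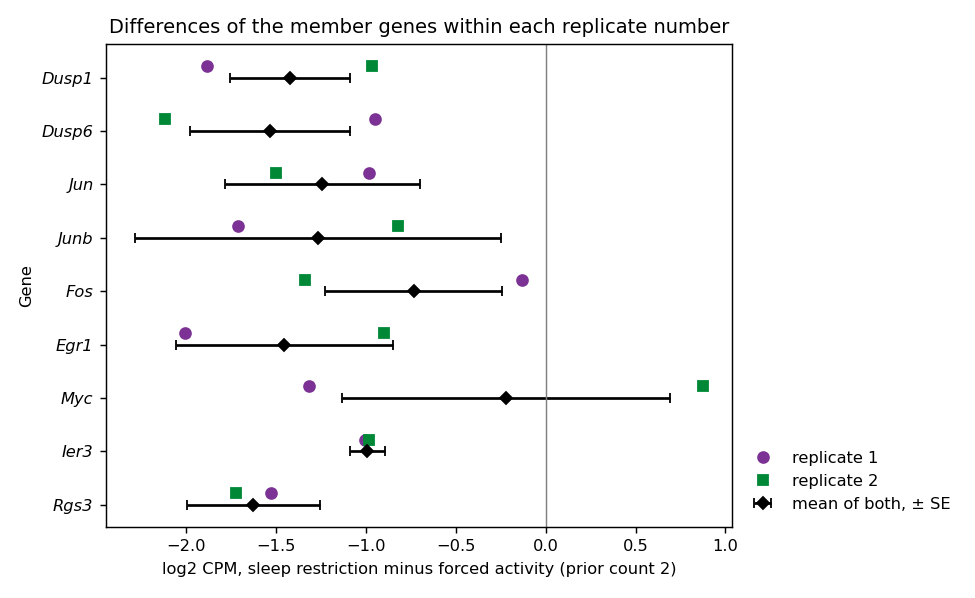
Log2 difference in CPM, sleep restriction minus forced activity, for each measured member (y axis). Diamonds are the mean with its SE, circles the replicate 1 libraries and squares the replicate 2 libraries. Rgs3 and Ier3 have nearly equal values in both, while Myc is at -1.32 in replicate 1 and 0.88 in replicate 2.

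Apart from Rgs3, whose interval is 139 kb long, the members are short genes of 1.78 to 4.93 kb, against a median of 22.04 kb for tested genes. The 1074 rows with a mean count of at least 1 in that length range had a median log2 difference of -0.08, and 21.6% of them had both sleep restriction libraries below both forced activity libraries. In 1.02% of them the difference was below -1. The part of interval length in the members' differences was not tested.

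Other immediate early genes were taken from a separate list. Of 51 listed genes, 36 had a mean count of at least 1, and their median log2 difference was -0.19, against 0.02 over all such rows, with 23 negative and 13 positive. In 7 of the 36 (19.4%) both sleep restriction libraries lay below both forced activity libraries, against 13.6% of all such rows. Of 12 tested with edgeR, 0 were called in either direction. The lowest tested were Gadd45a, a DNA damage and stress response gene, at -0.65 (SE 0.22), and Zfp36, which encodes a protein that destabilises AU-rich messenger RNAs, at -0.59 (SE 0.28). Zfp36 had 21.4 and 18 counts in sleep restriction 1 and 2, against 35.5 and 26.4 counts in forced activity 1 and 2. The highest tested were Id2, an inhibitor of helix-loop-helix factors, at 0.53 (SE 0.25), and Zfp36l1 at 0.29 (SE 0.26). Gadd45g, below the filter and chosen after its values were seen, had the most negative value of the list at -1.77 (SE 0.57), with 3 and 2 counts in sleep restriction 1 and 2, against 19.5 and 8.8 counts in forced activity 1 and 2. Without sleep restriction 2 the list's median was 0.010, and without forced activity 1 it was 0.036.

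Other dual-specificity phosphatases, not all of them MAP kinase phosphatases like Dusp1 and Dusp6, were mostly too low to test. Of 11 rows with a mean count of at least 1, 8 were negative, with a median of -0.10 that was 0.0057 without forced activity 2, and only Dusp3 was tested, at -0.10 (SE 0.16). Genes that feed back on ERK signalling had a median of -0.35 over 8 rows, 5 of them negative, and the median was -0.20 both without sleep restriction 2 and without forced activity 2. Both sleep restriction libraries lay below both forced activity libraries in 3 of the 8 (37.5%) and above them in 1. The shares of all rows with a mean count of at least 1 were 13.6% and 18.8%. All rows of this list but Errfi1 were below the filter on low counts. The 1 tested, Errfi1, which encodes an inhibitor of the EGF receptor, had 224.9 and 238 counts in sleep restriction 1 and 2, against 339.8 and 331.7 counts in forced activity 1 and 2. Its groups did not overlap and its log2 difference was -0.53 (SE 0.09), which edgeR did not call.

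The upstream MAP kinase cascade had a positive median over 31 rows, at 0.11, with 12 negative and 19 positive. Among the 20 tested the median was 0.04, with 10 negative and 10 positive, and 0 were called. Both sleep restriction libraries lay above both forced activity libraries in 11 of the 31, against 18.8% of all rows with a mean count of at least 1. The highest tested were Met, the receptor of hepatocyte growth factor, at 0.96 (SE 0.94), and Sos1, which loads Ras with GTP, at 0.91 (SE 0.26). Sos1 had 17.8 and 17 counts in sleep restriction 1 and 2, against 9.9 and 6.9 counts in forced activity 1 and 2. The lowest were Map2k6, a kinase that activates p38, at -0.94 (SE 0.14), and the FGF receptor Fgfr4 at -0.39 (SE 0.16).

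Factors that act on immediate early promoters had a median of 0.17 over 14 rows, and 0 of 6 tested were called. The median was 0.05 without sleep restriction 2 and 0.07 without forced activity 1. Elk4, a partner of serum response factor, was at 0.24 (SE 0.29) and Stat3 at 0.22 (SE 0.09), while the CREB coactivators Crtc2 and Crebbp were at -0.28 (SE 0.41) and -0.12 (SE 0.39). Around Rgs3, the other RGS genes and G proteins had a median of 0.09 over 16 rows, which was 0.05 without sleep restriction 1, 0.17 without sleep restriction 2 and 0.20 without forced activity 1, with 0 of 7 tested called. Gnai2 was at 0.36 (SE 0.04), Gna13 at 0.26 (SE 0.17), Gnb2 at -0.21 (SE 0.42) and Gnai3 at -0.0049 (SE 0.05). Genes of the network around Myc and Max, not all of them partners of Myc, had a median of 0.02 over 6 rows. This median was 0.14 without sleep restriction 2, 0.08 without forced activity 2 and -0.04 without forced activity 1. Of the 4 tested, 0 were called. Max was at 0.21 (SE 0.03), Mlx at -0.08 (SE 0.15), Mxi1 at -0.41 (SE 0.31) and Mxd4 at -0.41 (SE 0.65). Max had only 19.5 and 20 counts in sleep restriction 1 and 2, against 15.8 and 17.8 counts in forced activity 1 and 2. The small SEs of Max and Gnai2 may therefore understate counting error.

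**Figure D5:**
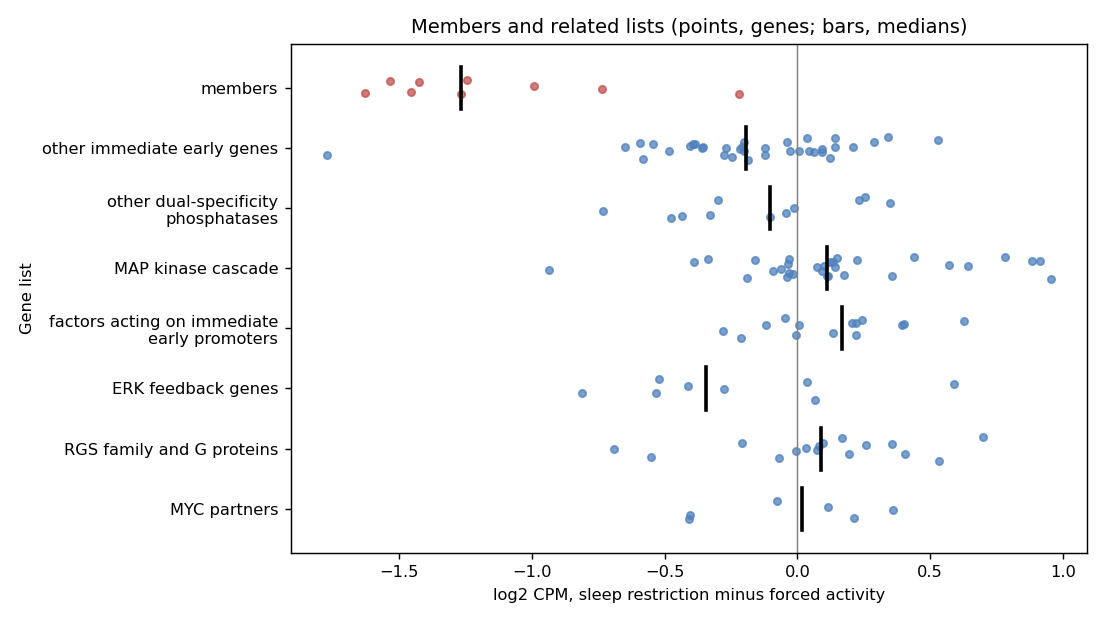
Log2 difference in CPM, sleep restriction minus forced activity (x axis), for the 9 measured members (red) and for genes of 7 related lists with a mean count of at least 1 (blue). Points are genes, spread vertically for visibility, and bars are medians, which are -1.27 for the members, -0.35 for ERK feedback genes and between -0.19 and 0.17 for the other lists.

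Among tested genes that are no member, 5 had the 4-library pattern closest to the mean of the 5 tested members, by root mean square distance of gene-centred log2 CPM. They were Igkc (0.17), Nipal1 (0.20), Phtf2 (0.26), Serpina6 (0.27) and Snrnp25 (0.29). The tested members themselves lay between 0.16 for Rgs3 and 0.30 for Dusp1 from that mean, which they helped to set. Igkc, an immunoglobulin light chain, had 35.8 and 36.6 CPM in sleep restriction 1 and 2, against 107 and 96.2 CPM in forced activity 1 and 2. The measure rests on 4 libraries only.

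Whole liver holds several cell types that express immediate early genes, and fewer cells of a type and less RNA per cell cannot be told apart in these data. Hepatocyte markers were abundant in every library, all 6 above 0, with sums between 196387 and 208598 CPM. The part of cell content in the members' differences was not tested. All 7 endothelial marker rows found were above 0 in every library. They summed to 472 and 252 CPM in sleep restriction 1 and 2, against 195 and 472 CPM in forced activity 1 and 2. All 8 macrophage markers were above 0 in every library and summed to 626 and 431 CPM, against 366 and 512 CPM. The 7 stellate cell markers summed to between 173 and 188 CPM in all libraries, and 5 cholangiocyte markers to between 24.4 and 37.1 CPM. The 5 red cell markers summed to 1171 and 680 CPM in sleep restriction 1 and 2, against 866 and 1778 CPM in forced activity 1 and 2. Lymphocyte markers summed to 23.0 and 34.6 CPM, against 16.5 and 24.3 CPM. Neutrophil markers summed to at most 4.88 CPM in any library, with Mpo at 0 in every one.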

How the data were processed

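Per the labels' protocols, liver RNA was extracted with TRIzol, and messenger RNA was purified, fragmented and made into Illumina libraries. The submitters' processing notes name CASAVA, STAR 2.4.1d and the rat build rn6, without roles, with the counting step not given in the sources used here. In 1 table the authors deposited estimated counts per Ensembl gene, as multiples of 0.1 in columns of nearly equal totals. Going by the table's title and its values, they are read here as sense-strand counts averaged over draws to a common depth. Such averaging would lower counting noise below that of plain counts, which the tests do not model.

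The 4 libraries were mapped to groups by their titles, and there were 0 unused sample columns. Rounded counts went into edgeR 4.0.16 (R 4.3.3, filterByExpr with a minimum count of 10, TMM factors, robust quasi-likelihood, Benjamini-Hochberg adjustment over all genes kept, threshold 0.05). The test was checked on simulated counts with a dispersion set to 0.05. It recovered 15.8% of the genes changed 2-fold and 83.1% of those changed 4-fold, with 3.59% false calls. Most 2-fold changes were thus missed at that dispersion, and a gene without a call is not shown to be unchanged. Alternatives were DESeq2 1.42.0, limma-voom in limma 3.58.1, other scalings, prior counts and filters, a replicate term, and leaving out each library. CPM, log2 differences (prior count 2) and their SE were calculated from unrounded counts. Genes named from each list were the 2 highest and 2 lowest tested, and from similar patterns the 5 nearest. The members, lists and alternatives were chosen with earlier results of these data known. Sequences were matched to RefSeq by symbol. Intervals cover counting error only.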

Additional observations from a re-analysis of the deposited data

How the results depend on the processing

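Calls depended on the test. The number of genes called was 1 in edgeR's main analysis, 2 with DESeq2, 11 with a replicate block, and 0 with limma-voom, without robust estimation, without a gene filter, and when any 1 library was left out (0 to 0), where the spread of the remaining group stands in for that of the lone library. It was unchanged at 1 with DESeq2 size factors, with column totals only and with the older quasi-likelihood fit, which was added after seeing the data. Of the members, 0 were called in every setting except the replicate block, which called 2, Dusp1 and Rgs3. Nothing in the labels ties equal replicate numbers to a shared animal or batch, and with only 2 pairs (correlation of deviations 0.21) the block was not used in the main test.

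The members' median log2 difference was -1.55 with a prior count of 0.5 and -1.04 with a prior count of 5. It ran from -1.50 to -0.93 with 1 library left out. For other immediate early genes it was -0.26 with a prior count of 0.5, -0.12 with a prior count of 5, and -0.36 to 0.036 with 1 library left out. For ERK feedback genes it was -0.45 with a prior count of 0.5, -0.21 with a prior count of 5, and -0.44 to -0.20 with 1 library left out. For the MAP kinase cascade it was 0.08 to 0.11 with 1 library left out. Of 72 alternative values of single members, 71 were negative, the exception being Myc without forced activity 1. These values recompute the same libraries, and the members were chosen with this contrast known, so nothing is read from that count. Depth limits Fos, Junb, Myc and Egr1 most.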

Other observations

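Rgs16, another inducible regulator of G-protein signalling, was chosen after its values were seen and lay below the filter on low counts. It had 5.5 and 4 counts in sleep restriction 1 and 2, against 35.5 and 0.5 counts in forced activity 1 and 2. Forced activity 1 alone was high, as it was for Junb and Myc, and the log2 difference was -0.55 (SE 1.99), with -2.38 in replicate 1 and 1.28 in replicate 2. Spry2, an inhibitor of receptor tyrosine kinase signalling that ERK induces, was also chosen after its values were seen. It had 0.8 and 0 counts in sleep restriction 1 and 2, against 2.2 and 2.1 counts in forced activity 1 and 2, all too few to separate from counting error. Egfr, the receptor of epidermal growth factor, was likewise chosen after its values were seen and had 92.1 and 56 counts in sleep restriction 1 and 2, against 43.9 and 33.1 counts in forced activity 1 and 2. Its log2 difference was 0.88 (SE 0.43), opposite in sign to that of Errfi1, which encodes its inhibitor, and edgeR did not call it.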
